A study of Mus musculus with 6 samples.

Results

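The replication-dependent histone genes of mouse bone marrow progenitors were followed across Srsf2 P95H/+ and Srsf2 +/+ (WT) libraries. Members were all rows of the deposited count table whose symbol carries an old histone cluster name, that is Hist followed by a cluster number from 1 to 4 and the letter h. This gave 64 of 26027 genes. They fall into 6 H1 genes, 17 H2a genes, 18 H2b genes, 10 H3 genes and 13 H4 genes. GENCODE M21 for mm10 lists 61 of them as coding and 3, Hist1h2aj, Hist1h2al and Hist3h2bb-ps, as pseudogenes. Of the coding members, 53 lie in the Hist1 cluster at chr13:21715763-23934156, 5 in Hist2 at chr3:96219865-96263311 and 2 in Hist3 at chr11:58948920-58956830, while Hist4h4 stands alone at chr6:136801553-136804415.

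The cells were Lin-/cKit+/eYFP+ progenitors sorted from the bone marrow of C57BL/6 mice after tamoxifen. Mice of both genotypes carried hScl-CreERT, a tamoxifen-inducible Cre under Scl regulatory sequence, which is active in blood stem and progenitor cells, and R26eYFP, a reporter that marks the recombined cells. The mutant mice carried Srsf2 P95H/+, a proline-to-histidine change in an SR protein of pre-mRNA splicing, and the others Srsf2 +/+, with 3 libraries of each genotype. P95H/+ replicates 1 and 2 were female and replicate 3 male, all of 32 weeks, while WT replicate 1 was a female of 54 weeks and WT replicates 2 and 3 were males of 32 weeks. Nothing in the labels says whether each library was 1 mouse, so that p-values measure the spread between these libraries.

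Replication-dependent histones are the bulk histones made in S phase, when new DNA is packed into nucleosomes. H2A, H2B, H3 and H4 form the nucleosome core and H1 binds the linker DNA. Their mRNAs are, as a rule, made from genes without introns and end in a conserved stem-loop in place of a poly(A) tail. The stem-loop binding protein SLBP holds this hairpin during 3′ end formation and translation, and the mRNAs are broken down when DNA synthesis ends. The RNA here was total RNA depleted of ribosomal RNA, a preparation that does not select for poly(A) tails.

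The hairpins are shown because they are what sets these mRNAs apart from polyadenylated ones. A search of the gene models for the stem-loop, with a stem arm of 6 bases and a loop of 4, found it in 43 of the 64 members, from 21 to 54 bases past the stop codon with a median of 31. Across 22527 genes with a coding model in M21, 50 had such a hairpin within 100 bases of the stop codon, and 46 of these carry a histone symbol of the same kind. The other 4 were H2afx, H2bfm, Ly6f and Slc23a4. Stem arms are given in capitals, with 5 bases on each side, as the strand of the mRNA in DNA letters.
Hist1h1c (chr13:23739507-23739532, +): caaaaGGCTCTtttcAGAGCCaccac
Hist1h2bb (chr13:23747198-23747223, +): ccaaaGGCTCTtttaAGAGCCaccca
Hist1h3g (chr13:23535884-23535909, +): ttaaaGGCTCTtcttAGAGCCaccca
Hist1h4d (chr13:23581945-23581970, +): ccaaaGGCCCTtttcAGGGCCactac
Hist1h4j (chr13:21735432-21735457, +): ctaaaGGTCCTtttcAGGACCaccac
The arm GGCTCT stood in 31 members of H1, H2a, H2b and H3, GGCCCT in 10 members and GGTCCT in 2, all 12 of them H4 genes. Counting the loop, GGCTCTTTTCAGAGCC was the most frequent form, in 23 of the 43. Of the 21 members with none in the model, 3 were the pseudogenes and 13 had models that end within 40 bases of the stop codon.

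Promoters were read from RefSeq for the 55 members that matched by symbol (GRCm38.p6, from 250 bases before to 50 after the start), and each motif was searched on both strands. The promoters of an H1, an H2b and an H4 gene are shown because they hold the elements searched for in H1, H2a and H2b, and H4 promoters. The 150 bases before the start are printed with the motifs found in capitals.
Hist1h1c (chr13:23738657-23738806, +): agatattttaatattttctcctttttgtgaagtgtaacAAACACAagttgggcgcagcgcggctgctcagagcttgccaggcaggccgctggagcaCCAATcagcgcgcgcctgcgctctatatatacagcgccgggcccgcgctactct
Hist1h2bb (chr13:23746584-23746733, +): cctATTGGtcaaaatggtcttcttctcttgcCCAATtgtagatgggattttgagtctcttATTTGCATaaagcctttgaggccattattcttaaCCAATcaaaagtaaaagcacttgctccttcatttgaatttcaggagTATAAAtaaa
Hist1h4d (chr13:23581418-23581567, +): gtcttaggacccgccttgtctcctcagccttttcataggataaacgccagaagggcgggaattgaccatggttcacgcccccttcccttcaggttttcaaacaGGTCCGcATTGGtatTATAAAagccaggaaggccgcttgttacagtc
AAACACA, the AC box known from H1 promoters, stood in 5 of 6 H1 promoters and in 7.19% of all 32817 promoters. ATTTGCAT, the octamer that OCT1 binds, stood in 6 of 14 H2a and 5 of 15 H2b promoters, some of which are shared by divergent H2a and H2b pairs, and in 1.74% of all promoters. GGTCCG, part of the H4 element that HINFP binds, stood in 11 of 12 H4 promoters and in 8.25% of all. TATAAA stood in 60.0% of the histone promoters against 13.6% of all, and CCAAT in all promoters of H1, H2a, H2b and H3 members but in 3 of 12 H4 promoters, against 37.4% of all. These matches describe letters and not bound sites.

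The replicate 3 libraries of both genotypes differed from the remaining 4 in ways that touch all genes. Library totals were 21673761, 22614408 and 10747941 counts in P95H/+ replicates 1, 2 and 3 and 23010510, 21104066 and 16842751 counts in WT replicates 1, 2 and 3. Median log2 deviations from each gene's own mean were -0.78 in P95H/+ replicate 3 and -0.56 in WT replicate 3 for transcripts of up to 40% GC, and 0.57 in P95H/+ replicate 3 and 0.27 in WT replicate 3 for those above 55% GC. Histone genes are GC-rich, with a median of 57.8% against 49.1% over tested genes, so histone values are given below with and without replicate 3 and after a correction for GC. Srsf2 itself averaged 331 ± 14.2 CPM (the count divided by the library total, scaled to a common depth) in P95H/+ and 332 ± 9.79 CPM in WT (SD, n = 3 each), which does not test the P95H allele. All 10 progenitor markers were detected, with summed levels of 7602 to 8033 CPM in P95H/+ and 6716 to 8772 CPM in WT. Of 20 markers of mature and lineage-depleted cells none was at 0 in any library, 18 were tested, and their sum was 711 to 1845 CPM in P95H/+, highest in replicate 3, and 859 to 1136 CPM in WT. The part of such cells in the histone values was not tested.

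Histone transcripts took a similar share of the RNA in 5 of the 6 libraries and a larger one in WT replicate 3. Their counts were 1.32%, 1.25% and 1.27% of the total in P95H/+ replicates 1, 2 and 3, against 1.18%, 1.4% and 2.32% in WT replicates 1, 2 and 3. The summed level was 13157, 12529 and 12680 CPM in P95H/+ and 11776, 14046 and 23212 CPM in WT. The P95H/+ libraries all lie between WT replicates 1 and 2, and WT replicate 3 lies above the other 5 libraries. The means were 12789 ± 328 CPM in P95H/+ and 16345 ± 6054 CPM in WT (SD, n = 3 each), a log2 ratio of -0.35. The means differ by less than the SD of the WT libraries. Without replicate 3 of both genotypes the log2 ratio was -0.01, and in replicate 3 alone it was -0.87. In sorted bulk cells, fewer cells in S phase and less histone RNA per cell cannot be told apart.

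WT replicate 3 was the highest library in each of the 5 classes. H1 linker histones summed to 3432, 3321 and 3086 CPM in P95H/+ and 3026, 3595 and 5813 CPM in WT. H2a genes summed to 1578, 1495 and 1396 CPM in P95H/+ and 1447, 1688 and 2482 CPM in WT, and H2b genes to 3031, 2835 and 2586 CPM in P95H/+ and 2790, 3245 and 5275 CPM in WT. H3 genes summed to 2637, 2537 and 2975 CPM in P95H/+ and 2264, 2813 and 4964 CPM in WT, and H4 genes to 2479, 2341 and 2636 CPM in P95H/+ and 2250, 2705 and 4678 CPM in WT. In every class the genotypes overlap. The lowest library was WT replicate 1 for H1, H3 and H4 and P95H/+ replicate 3 for H2a and H2b. WT replicate 3 exceeded the mean of WT replicates 1 and 2 by 1.58-fold for H2a, 1.75-fold for H2b, 1.76-fold for H1, 1.89-fold for H4 and 1.96-fold for H3. P95H/+ replicate 3 stood at 1.15 times the mean of P95H/+ replicates 1 and 2 for H3 and 1.09 times for H4, but at 0.914 times for H1, 0.909 times for H2a and 0.882 times for H2b.

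**Figure D1:**
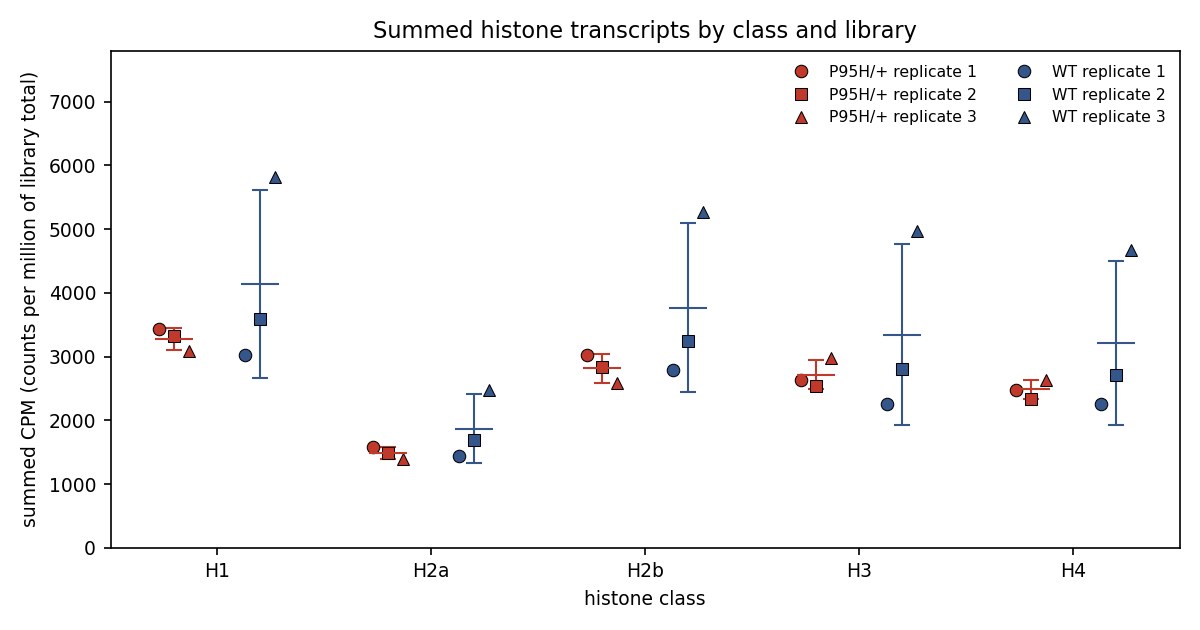
Summed level of each histone class in CPM (y axis) by class (x axis), with P95H/+ in red left of WT in blue; symbols are single libraries, and bars give the mean and SD of 3. The WT triangle, replicate 3, is the highest library in each class, at 5813 CPM for H1 and 2482 CPM for H2a, while the P95H/+ libraries lie close together.

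The balance between classes varied little. As shares of all histone counts, H1 held 24.3% to 26.5% over the 6 libraries, H2a 10.7% to 12.3%, H2b 20.4% to 23.7%, H3 19.2% to 23.5% and H4 18.7% to 20.8%. The genotype means were 25.6 ± 1.15% in P95H/+ and 25.4 ± 0.351% in WT for H1, and 21.3 ± 1.92% in P95H/+ and 20.2 ± 1.09% in WT for H3 (SD, n = 3 each), closer than the spread within P95H/+. Per kilobase of coding sequence the order was different, because coding sequences are longest in H1 genes and shortest, at 312 bases, in H4 genes. The counts are per gene and not per coding sequence, so this scale is a rough one. H4 genes summed to 7944, 7502 and 8448 CPM per coding kilobase in P95H/+ and 7210, 8670 and 14993 in WT, and H2b genes to 7891, 7387 and 6740 in P95H/+ and 7232, 8427 and 13711 in WT. H3 genes followed with 6174 to 7238 in P95H/+ and 5508 to 12078 in WT, then H1 with 4730 to 5246 in P95H/+ and 4627 to 8882 in WT. H2a genes were lowest, at 3555 to 4018 in P95H/+ and 3685 to 6315 in WT. Neighbours from H4 through H2b to H3 were not separated beyond their spread over libraries, and in P95H/+ replicate 3 H3 stood above H2b, at 7238 against 6740.

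Most members were expressed at a moderate to high level. Averaged over the 6 libraries, 47 of 64 reached at least 50 CPM and 8 stayed under 5 CPM. Hist1h1c, a somatic linker histone, was the highest with 900.4, 876 and 1103 CPM in P95H/+ against 829.6, 920 and 1471 CPM in WT. The other somatic linker histones Hist1h1d, Hist1h1e, Hist1h1a and Hist1h1b averaged 738, 689, 653 and 613 CPM over all libraries. Among core histones the highest means per class were Hist1h3e at 581 CPM, Hist1h4d at 493 CPM, Hist1h2bn at 435 CPM and Hist1h2ab at 244 CPM. Per coding kilobase Hist1h1c, Hist1h4d and Hist1h3e stood at 1591, 1579 and 1414 CPM. At the low end was Hist1h2ba, a testis-specific H2B, with at most 5 counts in any library and a mean of 0.241 CPM.

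No histone gene differed between genotypes in the test across all genes. With edgeR's quasi-likelihood test over all 6 libraries, 0 of 17144 tested genes passed an adjusted p of 0.05 (0.0% called), and 0 of the 62 tested histone genes. Hist1h2ba and Hist1h2br had too few counts to be tested. At an unadjusted p under 0.05, 1 histone gene was higher in P95H/+, where the share of all tested genes was 0.7%, and 2 were lower, where it was 1.41%. DESeq2 called 8 genes and limma voom 0, no histone gene among them, with 3 and 2 histone genes at an unadjusted p under 0.05. Of the 62, 58 had a negative log2 fold change with a median of -0.31, against 46.9% negative and a median of 0.02 over all tested genes. Without WT replicate 3 the histone median was 0.01, with 29 of 62 negative.

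The 47 abundant members shared 1 pattern across libraries. All 47 were highest in WT replicate 3, and 27 were lowest in WT replicate 1, the library of the 54-week female, 19 in P95H/+ replicate 3 and 1 in P95H/+ replicate 2. Over all 62 tested members, 58 were above the mean of WT replicates 1 and 2 in WT replicate 3, against 47.1% of all tested genes. The log2 excess of WT replicate 3 over WT replicates 1 and 2 ran from 0.52 in Hist1h2ab to 1.25 in Hist1h3g, with a median of 0.82 over the 47. P95H/+ replicate 3 had no such shared shift, with a median log2 difference of -0.01 from P95H/+ replicates 1 and 2. Leaving aside Hist1h4n, which has the same coding sequence as Hist1h4m, this difference ran from -1.12 in Hist1h2ad to 0.88 in Hist4h4. Hist1h4n alone had -1.76, and its sum with the copy, Hist1h4m, had -0.77.

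**Figure D2:**
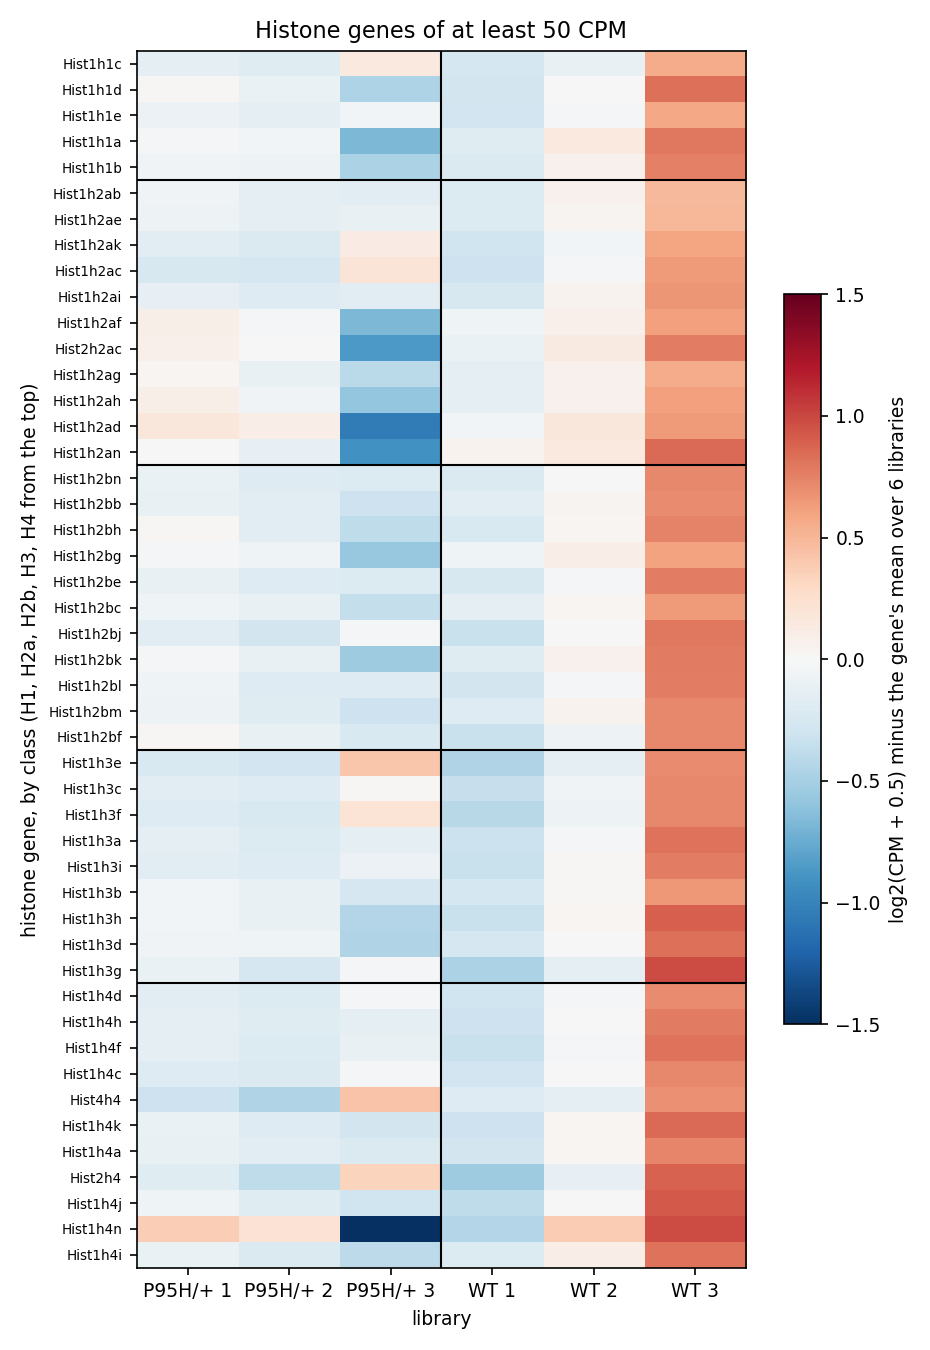
Each row is 1 of the 47 histone genes of at least 50 CPM, by class and then by level; columns are libraries, P95H/+ left of WT. Colour gives log2(CPM + 0.5) minus the gene's mean, and the WT replicate 3 column is red in all 47 rows while the P95H/+ replicate 3 column is mixed.

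In replicates 1 and 2 the 47 members hardly differed between genotypes. The log2 difference P95H/+ minus WT had a median of 0.04 and was negative in 10 of 47. Over all tested genes its median was 0.01, with 8363 of 17144 negative. Apart from Hist1h4n, the 47 ran from -0.17 in Hist4h4 to 0.19 in Hist1h2bf. In replicate 3, which sets 1 library against 1, all 47 were negative with a median of -0.82. Over all tested genes 7902 of 17144 were negative there, with a median of 0.05. Apart from Hist1h4n, the 47 ran from -1.63 in Hist1h2an to -0.11 in Hist4h4. Hist1h4n alone had 0.37 in replicates 1 and 2 and -2.36 in replicate 3, whereas its sum with Hist1h4m had -0.10 and -1.38, which turns the direction in replicates 1 and 2. Hist4h4, an H4 gene outside the large clusters, shows how the replicate 3 libraries can cancel, with 205, 186 and 343 CPM in P95H/+ against 222, 229.7 and 409 CPM in WT. It was high in replicate 3 of both genotypes, and its groups overlap (log2 fold change -0.14 ± 0.35 SE, adjusted p = 1.0 by edgeR). Hist1h3e had 473, 455 and 741 CPM in P95H/+ against 405, 503 and 910.4 CPM in WT and was also high in both replicate 3 libraries. Hist1h1a had 609, 607 and 389 CPM in P95H/+ against 547, 689.6 and 1076 CPM in WT, so that its replicate 3 libraries went opposite ways.

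**Figure D3:**
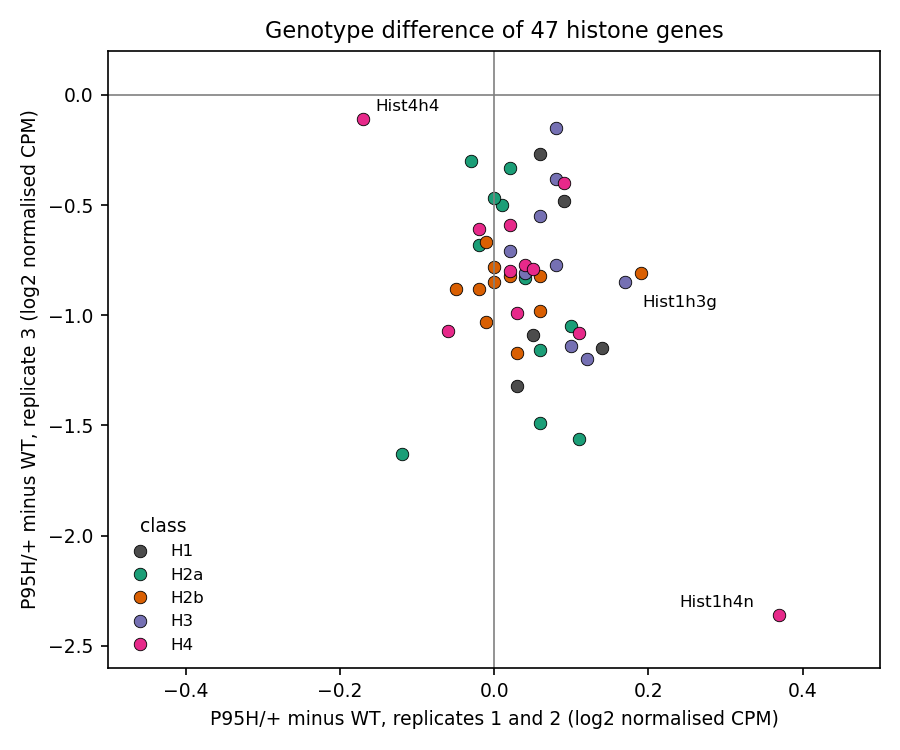
Each point is 1 of the 47 abundant histone genes, coloured by class: log2 difference P95H/+ minus WT in replicates 1 and 2 (x axis) and in replicate 3 (y axis). Points lie between -0.17 and 0.37 along x and are all below 0 along y, down to -2.36. The extreme in both is Hist1h4n, whose sum with Hist1h4m, a gene of the same coding sequence, lies at -0.10 and -1.38.

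Among the named genes of the core classes the same values recurred. Hist1h2bn had 394, 368 and 366 CPM in P95H/+ against 364, 422 and 693 CPM in WT, Hist1h2bb 315, 302 and 275 CPM in P95H/+ against 306, 352 and 557 CPM in WT, and Hist1h2bh 329, 289 and 249 CPM in P95H/+ against 277, 332 and 544 CPM in WT. Hist1h4d had 430, 416 and 470.2 CPM in P95H/+ against 388, 472 and 781 CPM in WT, Hist1h4h 307, 296 and 306 CPM in P95H/+ against 271, 335 and 577 CPM in WT, and Hist1h4f 297, 283 and 303 CPM in P95H/+ against 259, 322 and 578 CPM in WT. In these 6 genes the P95H/+ libraries differ by less than the WT libraries do, and WT replicate 3 is the highest. Hist1h2ab, Hist1h2ae and Hist1h2ak had log2 fold changes of -0.18, -0.18 and -0.13, and Hist1h3c and Hist1h3f of -0.21 and -0.13, each smaller than its SE of 0.22 to 0.32. Among linker histones, Hist1h1a and Hist1h1b had -0.45 ± 0.30 and -0.38 ± 0.28, and Hist1h1d and Hist1h1e -0.35 ± 0.31 and -0.15 ± 0.25 (SE, adjusted p = 1.0 by edgeR for each).

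Correcting each library for transcript GC content made the median excess of WT replicate 3 smaller over the tested members and in each class. The extent differed between classes, and the median of P95H/+ replicate 3 over the tested members moved down. The median log2 difference of WT replicate 3 from WT replicates 1 and 2 over the 62 tested members was 0.81 before and 0.48 after the correction. By class it was 0.74 before and 0.52 after for H1, 0.62 and 0.17 for H2a, 0.80 and 0.42 for H2b, 0.95 and 0.56 for H3, and 0.90 and 0.68 for H4. For P95H/+ replicate 3 it was -0.03 before and -0.69 after. The genotype difference in replicates 1 and 2 had a median of 0.04 before and 0.12 after, and in replicate 3 of -0.81 before and -1.12 after. Across the 47 abundant members, coding GC content had a Spearman correlation of -0.05 with the deviation of P95H/+ replicate 3 and of -0.22 with that of WT replicate 3, given as descriptions over genes that share libraries and sequence. For the length of the longest transcript the same correlations were 0.25 with P95H/+ replicate 3 and 0.05 with WT replicate 3, both weak. In sets by the extent of the gene model, the median difference of P95H/+ replicate 3 from P95H/+ replicates 1 and 2 was 0.22 over 17 members whose model runs more than 300 bases past the stem-loop, -0.01 over 26 whose model ends sooner, and -0.26 over 19 tested members with no stem-loop in the model. The excess of WT replicate 3 was 0.84, 0.78 and 0.79 in the same 3 sets. These values are before the correction, which uses the GC content of the longest transcript. After it the excess of WT replicate 3 was 0.97, 0.4 and 0.37, and the difference of P95H/+ replicate 3 was 0.37, -0.74 and -1.0. Both medians thus rose in the set whose models run furthest past the stem-loop and fell in the others.

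In 4 members, 3 of them under 50 CPM, the groups did not overlap. Hist1h1t, a testis-specific linker histone, had 2.86, 4.02 and 3.35 CPM in P95H/+ against 1.52, 1.56 and 2.2 CPM in WT, and it was the only member with all P95H/+ libraries above all WT libraries, where 1.91% of tested genes were. These rest on 62, 91 and 36 counts in P95H/+ and 35, 33 and 37 counts in WT. Its log2 fold change was 1.03 ± 0.28 (SE; unadjusted p = 0.00628, adjusted p = 1.0 by edgeR), and 1.19 ± 0.27 without replicate 3 of both genotypes (adjusted p = 0.0782). Hist1h1t (chr13:23695814-23696725) shares no stretch of 150 bases with another member.

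In 3 members, Hist3h2bb-ps, Hist1h2bp and Hist1h2an, all P95H/+ libraries lay below all WT libraries, where 5.93% of tested genes did. Hist3h2bb-ps, annotated as a processed pseudogene at chr11:58954048-58954512, had 21.2, 16.9 and 15.5 CPM in P95H/+ against 30, 30 and 42.8 CPM in WT (log2 fold change -0.86 ± 0.24 SE, unadjusted p = 0.00772, adjusted p = 1.0 by edgeR). Without replicate 3 of both genotypes it was -0.62 ± 0.14 (SE, adjusted p = 0.0687). Hist1h2bp had 40.6, 38.7 and 27.3 CPM in P95H/+ against 46.6, 48.7 and 89.8 CPM in WT (-0.72 ± 0.30 SE, adjusted p = 1.0), and shares 47% of its 150-base stretches with Hist1h2br. Hist1h2an had 64.3, 59.3 and 34.2 CPM in P95H/+ against 66.8, 71.4 and 117 CPM in WT (-0.62 ± 0.31 SE, adjusted p = 1.0). It shares 72.5% of its stretches with Hist1h2ah and, like every H2a member, is overlapped on the opposite strand, here by Gm44346. For these 2 coding genes the gap between the groups in replicates 1 and 2 was narrow, at -0.22 and -0.12 on the log2 scale.

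**Figure D4:**
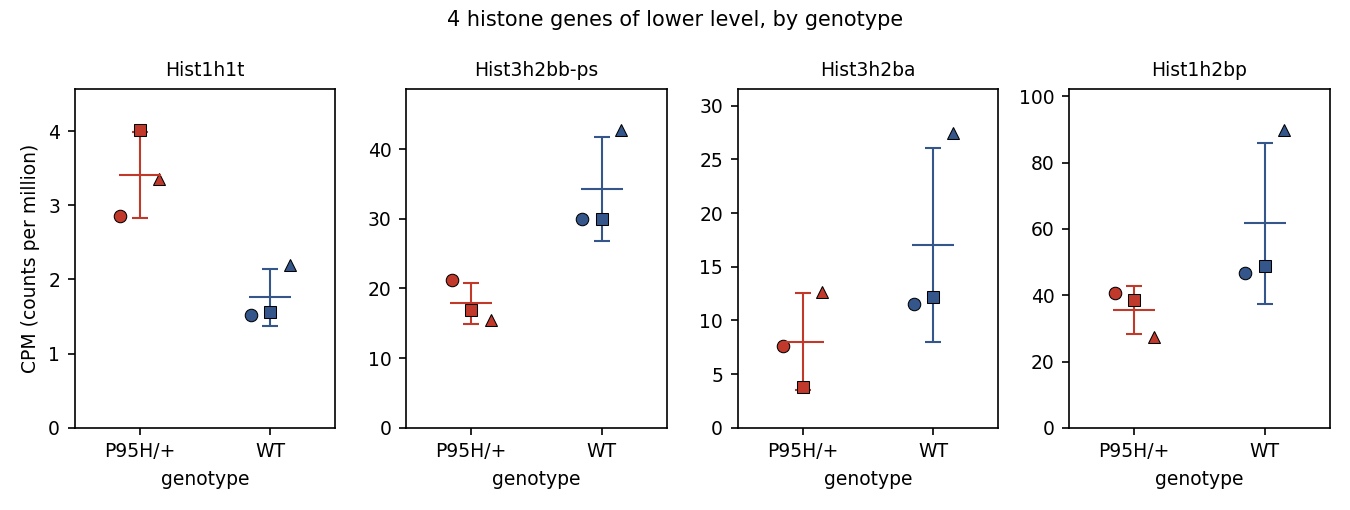
CPM (y axis, from 0 in each panel) of 4 histone genes of lower level by genotype (x axis), P95H/+ left of WT; circles, squares and triangles are replicates 1, 2 and 3, and bars give the mean and SD of 3. Hist1h1t is 2.86 to 4.02 in P95H/+ and 1.52 to 2.2 in WT, and Hist3h2bb-ps is 15.5 to 21.2 in P95H/+ and 30 to 42.8 in WT.

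All 3 members of the Hist3 cluster had a negative log2 difference, from -1.08 to -0.19 in replicates 1 and 2 and from -1.31 to -0.52 in replicate 3. All 3 are under 50 CPM. In replicates 1 and 2 the gap of Hist3h2a, -0.19, was similar to -0.22 for Hist1h2bp and -0.19 for Hist1h2bq, also of that level. Hist3h2bb-ps and Hist3h2ba had larger gaps, at -0.62 and -1.08. Over all tested members under 50 CPM this difference ran from -2.65 in Hist1h4m, which has the same coding sequence as Hist1h4n, to 1.13 in Hist1h1t. Hist3h2ba, its H2B gene, had 7.66, 3.76 and 12.7 CPM in P95H/+ against 11.5, 12.2 and 27.5 CPM in WT, with overlapping groups (log2 fold change -1.0 ± 0.53 SE, adjusted p = 1.0 by edgeR). Hist3h2a, its H2A gene, had 16.5, 19.5 and 13.3 CPM in P95H/+ against 28, 15.8 and 21.2 CPM in WT (-0.33 ± 0.27 SE, adjusted p = 1.0). WT replicate 2 lies below P95H/+ replicates 1 and 2 for this gene, and it overlaps Trim17 on the same strand. The remaining members with the smallest unadjusted p in either direction were further from the threshold. Hist1h2bq had a log2 fold change of -0.76 ± 0.38, Hist1h2ao of 0.32 ± 0.38, Hist2h2be of 0.10 ± 0.23 and Hist1h4b of 0.11 ± 0.49 (SE, adjusted p = 1.0 for each).

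Leaving out replicate 3 of both genotypes gave 144 called genes of 17371 (0.829%), 32 higher (0.184%) and 112 lower (0.645%) in P95H/+, and 0 of 62 histone genes. At an unadjusted p under 0.05 by edgeR, 1 histone gene was higher, Hist1h1t, where 6.14% of all tested genes were, and 3 were lower, Hist3h2bb-ps, Hist3h2ba and Hist1h2bp, where 9.44% were. The median log2 fold change of the 62 was 0.02 and that of all tested genes 0.00.

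Close copies limited what single values mean. Within a class the coding sequences of equal length shared a median of 97.8% of bases for H2a, 97.1% for H2b, 97.6% for H3 and 93.9% for H4, and 25 of 61 coding members shared at least 50% of their 150-base stretches with another member. Hist1h4m (chr13:21811746-21812147, +) and Hist1h4n (chr13:21831767-21832196, -) have the same coding sequence. Hist1h4m had 2.58, 1.5 and 37.4 CPM in P95H/+ against 75.6, 2.27 and 2.67 CPM in WT, and Hist1h4n had 139, 125 and 37.2 CPM in P95H/+ against 78.7, 139.6 and 212 CPM in WT. The 2 genes were near even in P95H/+ replicate 3 and WT replicate 1 only. Of their joint counts Hist1h4m held 50.1% (95% exact binomial interval 46.6% to 53.6%) in P95H/+ replicate 3 and 49% (47.4% to 50.7%) in WT replicate 1, against 1.83% and 1.19% in P95H/+ replicates 1 and 2 and 1.6% and 1.25% in WT replicates 2 and 3. The intervals cover counting error only, and why these shares differ between libraries was not tested. Their summed level was 142, 127 and 74.6 CPM in P95H/+ against 154, 142 and 214 CPM in WT. In this sum WT replicate 1 no longer stands below P95H/+ replicates 1 and 2, and P95H/+ replicate 3 is still the lowest library.

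Genes that act on histones or with them gave no call. SLBP, which binds the stem-loop, is encoded by Slbp, at 135, 128 and 65.7 CPM in P95H/+ against 135, 137 and 80.6 CPM in WT. It was lower in replicate 3 of both genotypes, and its log2 fold change was -0.04 ± 0.33 (SE, adjusted p = 1.0 by edgeR). Of 27 tested genes of histone mRNA processing and turnover, 16 had a positive and 11 a negative log2 fold change, with a median of 0.04 and 0 at an unadjusted p under 0.05. Ybx1, an RNA-binding protein that was the highest of them in CPM, had 0.37 ± 0.32 (SE, adjusted p = 1.0). Of 30 chaperones and assembly factors, 24 were positive with a median of 0.11, and Npm1, a histone chaperone of the nucleolus, had 0.28 ± 0.59 (SE, adjusted p = 1.0) with 1214, 1071 and 329.9 CPM in P95H/+ against 992, 968 and 283 CPM in WT. Of 50 genes of DNA replication and S phase, 32 were positive with a median of 0.06. In replicates 1 and 2 their log2 difference P95H/+ minus WT was negative in 7 of 50, with a median of 0.13. Over all tested genes it was negative there in 8363 of 17144, with a median of 0.01. In replicate 3 it was negative in 30 of the 50, with a median of -0.07. This lean was not tested. Mcm6, a subunit of the replicative helicase, had 622, 625 and 473 CPM in P95H/+ against 563, 628 and 623 CPM in WT.

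The excess of WT replicate 3 was smaller in the replication genes than in the histone genes. Their median log2 difference of WT replicate 3 from WT replicates 1 and 2 was 0.01, against 0.81 for histone genes, and after GC correction 0.17, against 0.48 for histone genes. For P95H/+ replicate 3 it was -0.22 before and -0.10 after the correction. These differences between lists were not tested. For 12 replication-independent histone variants it was -0.17 in P95H/+ replicate 3 and 0.05 in WT replicate 3. H2afz, the H2A.Z gene, had 279.6, 264 and 188 CPM in P95H/+ against 248, 273 and 354 CPM in WT. H3f3a and H3f3b, both encoding H3.3, had log2 fold changes of -0.07 ± 0.18 and -0.07 ± 0.19, and H2afy, encoding macroH2A, of 0.21 ± 0.26 (SE, adjusted p = 1.0 by edgeR for each). H2afx, which encodes H2A.X and whose model also holds the stem-loop, had 268, 270 and 439 CPM in P95H/+, and 478 CPM in WT replicate 3 against at most 288 CPM in WT replicates 1 and 2. It was high in replicate 3 of both genotypes.

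Small noncoding RNAs without poly(A) tails were high in replicate 3 of both genotypes before GC correction. The 10 tested had a median log2 difference between replicate 3 and replicates 1 and 2 of 0.75 in P95H/+ and 0.63 in WT, and all 10 were above in both. After GC correction the medians were -0.03 in P95H/+ and 0.33 in WT. Rpph1, the RNA of RNase P, had 632, 661 and 1044 CPM in P95H/+ against 566, 690.2 and 1051 CPM in WT. In P95H/+ replicate 3 the uncorrected histone median was -0.03 and 28 of 62 members were above, near the 48.4% of all tested genes. Why the replicate 3 libraries stood apart was not tested.

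**Figure D5:**
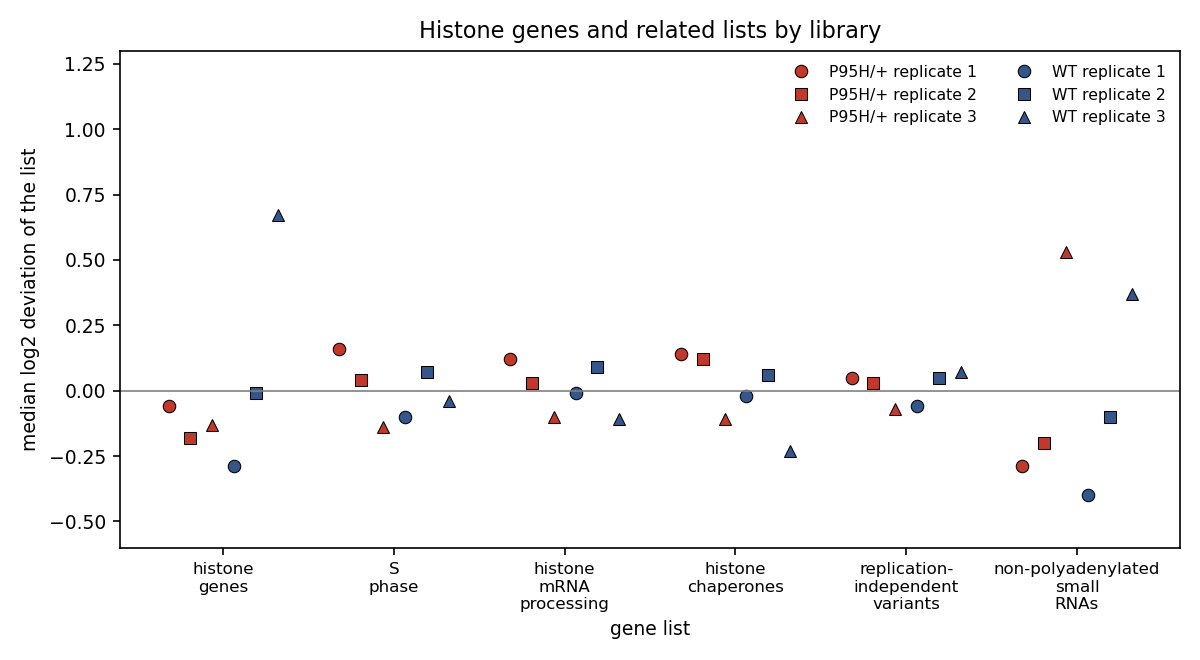
Median log2 deviation of each gene list from the gene's mean over 6 libraries (y axis) for the histone genes and 5 related lists (x axis); red symbols are P95H/+ and blue WT libraries. For histone genes WT replicate 3 stands at 0.67 and the other 5 libraries between -0.29 and -0.01, while for small noncoding RNAs the replicate 3 libraries stand at 0.53 in P95H/+ and 0.37 in WT.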

How the data were processed

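Total RNA of 6 libraries was depleted of ribosomal RNA and made into stranded, paired-end libraries, per the labels. The submitters' processing notes name STAR 2.5.3a, Subread 1.5.1 with featureCounts, Picard, Trim Galore, cutadapt, limma, edgeR and the build mm10. Settings, among them strand and the treatment of reads that match several genes, are not given in the sources used here. The deposited raw counts per gene were used for all tests, and the authors' deposited CPM were checked to equal count over library total within 5.0e-04. CPM in the text are on that scale. Totals ran from 10747941 to 23010510 counts.

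The genotype test was run in edgeR 4.0.16 under R 4.3.3 (TMM, filterByExpr, robust quasi-likelihood F test, two-sided, Benjamini-Hochberg over all tested genes, threshold 0.05); SE follows from the F statistic. Log2 values by library use normalised CPM with a prior count of 2. For the GC correction, a natural spline (4 degrees of freedom) was fitted to each library's deviations and entered as an offset. Both were checked on simulated counts of fixed dispersion, with no replicate 3 shift for the test and a linear GC trend for the correction. That check does not cover the spread seen in these libraries. Gene models and transcript GC came from GENCODE M21, which holds all 64 members, 2 of them matched by symbol. Alternatives were DESeq2 1.42.0, limma 3.58.1 voom, other scalings, no filter, sex, GC and length terms, the replicate block, and leaving out libraries. Deviations from group means correlated across genes by 0.372, 0.348 and 0.613 for replicates 1, 2 and 3, above the 0.1 of the pairing rule. The pairing comes from the data, not the labels. Other pairs of replicates 1 and 2 gave 0.463 and 0.386, so the rule cannot decide whether libraries pair by number.

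Members and lists were chosen with earlier results of these data known. Named members are the 3 highest per class, each H1 gene, the Hist3 and Hist4 clusters and the 4 smallest p in each direction; Slbp, H2afz, H2afx, H3f3a, H3f3b, Srsf2 and leading genes of each list were also named, though a few list genes it takes are left out here. Members outside the rule (Hist1h4m, Hist1h2ad, Hist1h2bf, Hist1h4n, Hist1h3g, Hist1h4j, Hist1h2ba, Hist1h2br, Hist1h2aj and Hist1h2al) were named after their values were seen.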

Additional observations from a re-analysis of the deposited data

How the results depend on the processing

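On values not corrected for GC, the direction of the histone difference rests on WT replicate 3. After the GC correction the median log2 deviation of histone genes was -0.59 in P95H/+ replicate 3 and 0.47 in WT replicate 3. No GC-corrected fit left out a library, and no setting called a histone gene. Genes called numbered 8 with DESeq2, 1 with the replicate block, 1 with the GC correction and replicate block, 144 without replicate 3 of both genotypes, and 0 to 1 when single libraries were left out. With the replicate block the histone median was -0.26 and no histone call changed. The median ran from -0.49 to 0.01 when single libraries were left out, positive without WT replicate 3, and was 0.02 without replicate 3 of both genotypes. The log2 ratio of summed CPM without replicate 3 of both genotypes was 0.03 for H1, -0.03 for H2a, -0.04 for H2b and 0.03 for H3, and with single libraries left out it ran from -0.52 to 0.10 for H3 and -0.57 to 0.00 for H4.

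Single genes that turned direction were all far from the threshold. Without replicate 3 of both genotypes the log2 fold changes were Hist1h1a 0.01, Hist1h1b 0.03, Hist1h1c 0.05, Hist1h1d 0.12, Hist1h1e 0.07, Hist1h2ak 0.01, Hist1h2bh 0.05, Hist1h3c 0.04, Hist1h3e 0.06, Hist1h3f 0.06, Hist1h4d 0.01, Hist1h4f 0.03, Hist1h4h 0.02, H2afz 0.09, H3f3a 0.01 and Mcm6 0.10. With sex in the model they were Hist1h1c 0.08, Hist1h1e 0.00, Hist1h2ak 0.05, Hist1h3e 0.22, Hist1h3f 0.11, Hist4h4 0.05 and Npm1 -0.28. Hist1h3e was 0.00 with the replicate block and 0.02 with GC and length correction. Mcm6 was 0.02 with DESeq2, with its size factors and with the GC correction and replicate block, and 0.01 with the GC correction. With library totals only, H2afx was -0.02 and Srsf2 -0.01. With single libraries left out the ranges were Hist1h1c -0.24 to 0.20, Hist1h1d -0.56 to 0.02, Hist1h1e -0.32 to 0.13, Hist1h2ab -0.33 to 0.01, Hist1h2ae -0.33 to 0.02, Hist1h2ak -0.31 to 0.15, Hist1h3c -0.41 to 0.15, Hist1h3e -0.33 to 0.36, Hist1h3f -0.35 to 0.25, Hist1h4b -0.36 to 0.66, Hist1h4d -0.43 to 0.09, Hist1h4f -0.53 to 0.08, Hist1h4h -0.51 to 0.06, Hist4h4 -0.50 to 0.19, H2afx -0.24 to 0.42, H2afy -0.01 to 0.39, H3f3b -0.15 to 0.04, Mcm6 -0.09 to 0.10, Npm1 -0.12 to 0.66, Rpph1 -0.19 to 0.38 and Slbp -0.26 to 0.21. The causes were not tested.

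With 3 libraries a genotype, an exact permutation test cannot go below a two-sided p of 0.1. Sex is not balanced between genotypes, P95H/+ replicate 3 is the shallowest library, and members with close copies can exchange counts.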
